A study of Mus musculus with 12 samples.

Results

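The glutathione S-transferases described here are 10 mouse genes, Gsta2 and Gsta4 of the alpha class, Gstm1, Gstm2 and Gstm5 of the mu class, Gstp1 of the pi class, Gstt1 of the theta class, and the microsomal enzymes Mgst1, Mgst2 and Mgst3. They were chosen by name, as the rows that carry these symbols among 50433 genes listed for renal tubular epithelial cells (TECs) and 50434 listed for cells labelled as neutrophils of the blood (PMN). In TECs 9 of the 10 had enough counts to be tested and in PMN 7 of the 10. RNA came from male wild-type C57BL/6J mice aged 8 to 12 weeks that had undergone renal ischemia-reperfusion injury (IRI), in which both renal pedicles were clamped for 35 minutes, and cells were taken 24 hours later. The glutamine-treated mice received an alanyl-glutamine dipeptide intravenously at 0.5 g/kg, which the study places 15 minutes after reperfusion for the TECs, and the vehicle-treated mice received saline. All groups had IRI, so no value below is a comparison with an uninjured kidney. The 4 groups were TECs with vehicle (replicates 3, 4 and 5), TECs with glutamine (replicates 1, 2 and 3), PMN with vehicle and PMN with glutamine, with 3 libraries each. TECs had been sorted as CD45- and Prominin-1+ cells from the kidney. The labels do not say that each library came from a separate mouse, so the p-values measure the spread between these libraries. The dose and timing behind the PMN libraries are not given in the sources used here.

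Glutathione S-transferases join the tripeptide glutathione to electrophilic compounds, among them the aldehydes and hydroperoxides that form when membrane lipids are oxidized, and several of them reduce lipid hydroperoxides directly. Alpha, mu, pi and theta enzymes are soluble proteins, whereas the microsomal enzymes belong to a separate family of membrane proteins. The conjugates leave the cell through export pumps and are trimmed and acetylated to mercapturates, a route in which the brush border of the proximal tubule takes a leading part. In many tissues transferase genes are known targets of the transcription factor NRF2, which binds antioxidant response elements.

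The TEC libraries held 5397370 to 10223461 estimated counts, with glutamine replicate 2 the shallowest, and the PMN libraries 20225246 to 21878446. Levels are given as CPM, the counts of a gene for each 1000000 counts of its library, scaled by TMM, a method that sets libraries to a common level of their shared genes. In TECs all 15 proximal tubule markers were detected, with a summed level of 14301 to 16009 CPM with vehicle and 11829 to 20145 CPM with glutamine, and Ptprc, which encodes CD45, stood at 0.102 to 2.74 CPM. Erythroid markers summed to 6709 CPM in glutamine replicate 2 and 4396 CPM in vehicle replicate 5, against 802 to 1599 CPM in the other TEC libraries. Glutamine replicate 2 was also the lowest TEC library for Gsta2, Gstm1, Gstm5, Gstp1 and the sum of the members. The part of erythroid RNA in these levels was not tested. Predicted, Rik and sensory receptor genes took 17.5% to 23.3% of the counts of the vehicle TEC libraries and 26.3% to 30.8% of those of the glutamine libraries. In PMN the 8 neutrophil markers summed to 22035 to 71261 CPM, led by S100a8, but 9 macrophage and dendritic cell markers summed to 10667 to 24776 CPM, led by Cd74, in the same libraries. Kap, a transcript of the proximal tubule, had 187 to 402 CPM in the PMN libraries, so their markers were not those of neutrophils alone. PMN vehicle replicate 1 stood apart with 1076 CPM of thick ascending limb markers against 4.23 to 43.6 CPM in the other PMN libraries. PMN vehicle replicate 2 stood apart with 2257 CPM of endothelial markers against 2.85 to 101 CPM in the others. B cell markers were also split by treatment in PMN, at 0.501 to 2.64 CPM with vehicle and 20.9 to 33.4 CPM with glutamine.

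Reads of 50 bases cannot always tell one transferase from another, and the counts of some members are therefore shared estimates. All windows of 50 bases in the members' transcripts were looked up in the other genes of GENCODE M21. Of the Gsta2 windows 47.4% also occurred elsewhere, mostly in Gsta1 (32.9%), Gm10639 (32.9%) and Gm3776 (28.2%), and of the Gstp1 windows 51% occurred in Gstp2. Gstm1 shared 19.9% of its windows and Gstm2 8.30%, whereas Gstm5 shared 12.2% with 4933431E20Rik alone, a gene that overlaps it on the opposite strand and whose reads cannot be told from its own without strand. Gsta4, Gstt1, Mgst1, Mgst2 and Mgst3 shared none in that annotation. The closeness is visible in the coding sequence, where Gsta2 and Gsta1 differ at 14 aligned bases (97.9% identical) and Gstp1 and Gstp2 at 12 (98.1% identical), but Gsta2 and Gsta4 of the same class at 226 (66.2% identical). Below, coding bases 451 to 510 of the alpha pair and 1 to 60 of the pi pair are shown because reads of one copy can be told from the other only at the bases that differ, which are set in capitals. The sequences are the plus sense of the transcript, 5′ to 3′.
Gsta2: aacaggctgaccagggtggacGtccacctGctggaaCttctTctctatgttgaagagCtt
Gsta1: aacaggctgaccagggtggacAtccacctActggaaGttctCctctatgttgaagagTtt
Gstp1: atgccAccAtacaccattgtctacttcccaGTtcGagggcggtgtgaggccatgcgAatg
Gstp2: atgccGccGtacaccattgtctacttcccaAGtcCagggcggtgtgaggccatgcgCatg

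The first comparison asked how the transferases of TECs differed between glutamine- and vehicle-treated mice after IRI. Of the 9 tested members 6 were lower with glutamine and 3 were higher, where 49.4% of all 14734 tested genes were lower. Their log2 fold changes had a median of -0.36, and those of all tested genes had a median of 0.01. None of the 9 passed an adjusted p-value of 0.05 in edgeR's quasi-likelihood test, as did 0% of all genes tested. At an unadjusted p-value below 0.05, 4 members were lower (Gsta4, Gstm1, Gstp1 and Mgst1) and 0 were higher, where 12.9% of all tested genes had such a p-value, 5.58% lower and 7.32% higher. DESeq2 called 1 member, Mgst1, at an adjusted p-value below 0.05, where it called 2.09% of the tested genes, and limma-voom called none of the members and none of all genes. In bulk RNA fewer cells of a type and less RNA per cell cannot be told apart.

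**Figure D1:**
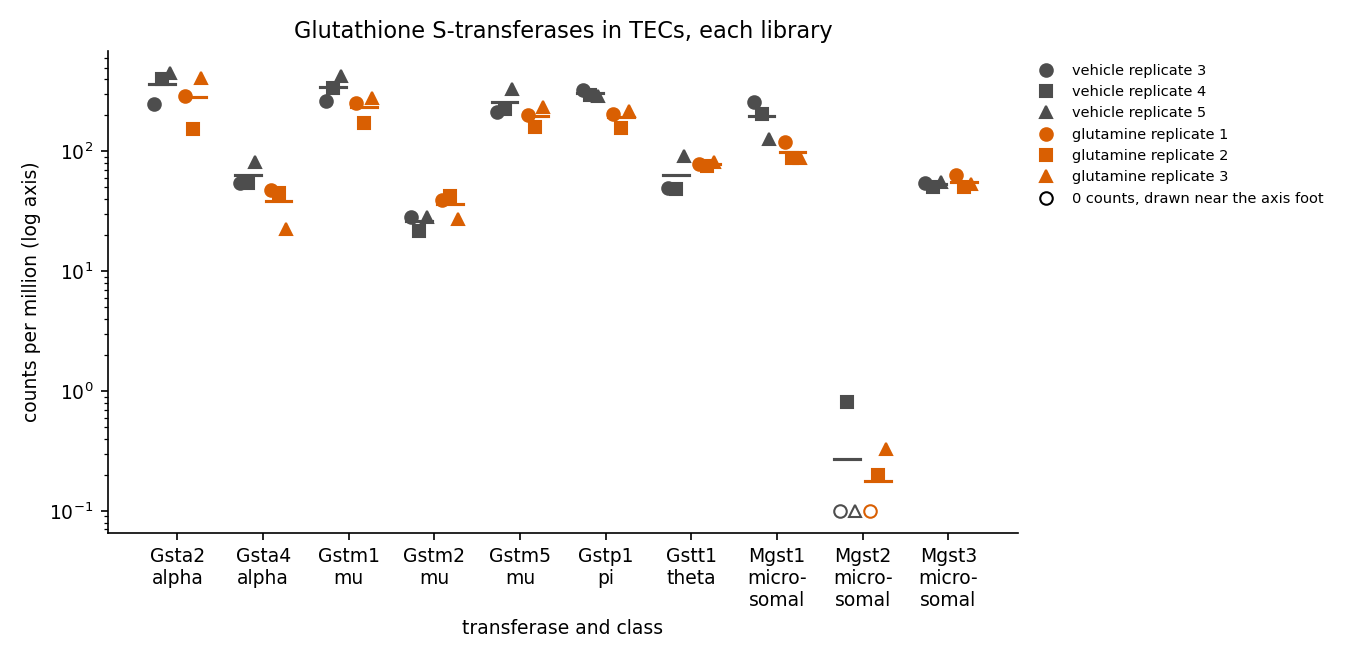
Level of each transferase in each TEC library, in CPM on a log axis; gray symbols are vehicle and orange symbols glutamine libraries, bars are group means, and open symbols are libraries with 0 counts. For Gsta4, Gstp1 and Mgst1 every glutamine library lies below every vehicle library, and Mgst2 lies below 1 CPM throughout.

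In the alpha class, Gsta2 (chr9:78331018-78355788 in GRCm38, minus strand) encodes an enzyme known to reduce lipid hydroperoxides. Its level was 248, 400 and 454 CPM in the vehicle libraries and 289, 154 and 413 CPM in the glutamine libraries. The groups overlapped, and glutamine replicate 2 was the lowest of the 6. The difference was small against its error, with a log2 fold change of -0.36 ± 0.33 (SE) and a 95% interval from -1.09 to 0.36 (edgeR, adjusted p = 0.672). It was -0.07 without glutamine replicate 2 and -0.73 without glutamine replicate 3. Summing Gsta2 with Gsta1 gave -0.50, and Gsta1 alone ranged from 43.6 to 197 CPM with vehicle and from 25.5 to 124 CPM with glutamine.

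Gsta4 (chr9:78182774-78209349, plus strand) lies 122 kb from Gsta2 and encodes the alpha enzyme known for conjugating hydroxynonenal, an aldehyde product of lipid peroxidation. It stood at 54.9, 54.2 and 81.5 CPM with vehicle and at 47.4, 45.2 and 22.6 CPM with glutamine. All glutamine libraries were below all vehicle libraries, as they were for 9.81% of the tested genes, and glutamine replicate 3 was the lowest. Its log2 fold change was -0.73 ± 0.30 with an interval from -1.39 to -0.06 (edgeR, adjusted p = 0.353), and without that replicate it was -0.46. The pair of alpha genes did not keep a fixed ratio, since Gsta2 had 18.3 times the counts of Gsta4 in glutamine replicate 3 and 3.4 to 7.38 times in the other libraries.

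The mu class members lie together on chromosome 3, with 83.0 kb between Gstm5 and Gstm2 and 25.8 kb between Gstm2 and Gstm1. Gstm1 (chr3:108012255-108017973, minus strand), an enzyme with a broad range of substrates, had 264, 338 and 423 CPM with vehicle and 253, 171 and 278 CPM with glutamine. Vehicle replicate 3 lay within the range of the glutamine libraries. Between the groups the log2 fold change was -0.54 ± 0.24 with an interval from -1.07 to -0.02 (edgeR, adjusted p = 0.373).

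Gstm5 (chr3:107895821-107898686, plus strand) had 212, 226 and 331 CPM with vehicle and 203, 160 and 234 CPM with glutamine. These groups overlapped, and the log2 fold change was -0.36 ± 0.23 with an interval from -0.87 to 0.14 (adjusted p = 0.521), and -0.14 without vehicle replicate 5. The counts of Gstm1 were 1.07 to 1.49 times those of Gstm5 in all 6 libraries, a narrow range.

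Gstm2 (chr3:107981702-107986453, minus strand), the tested member with the lowest level per kb, stood on the other side of 0. It had 28.2, 21.8 and 28.4 CPM with vehicle and 39.5, 42.2 and 27.4 CPM with glutamine. Glutamine replicate 3 lay among the vehicle libraries. With a log2 fold change of 0.47 ± 0.25 its interval ran from -0.08 to 1.03 (adjusted p = 0.454).

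The pi class enzyme Gstp1 (chr19:4035407-4037985, minus strand), which is also known to bind the stress kinase JNK, had vehicle libraries close to each other. It stood at 325, 298 and 290 CPM with vehicle (304 ± 18.4, SD, n = 3) and at 207, 156 and 218 CPM with glutamine (194 ± 33.3, SD, n = 3). Every glutamine library was below every vehicle library. Between the groups the log2 fold change was -0.65 ± 0.19 with an interval from -1.07 to -0.23 (edgeR, adjusted p = 0.233), which is 1.57-fold lower. Leaving out single libraries gave values between -0.75 and -0.52, and adding Gstp2 and Gstp3 gave -0.64, since both copies together stayed below 5 CPM in every library.

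Gstt1 (chr10:75783813-75798584, minus strand), the theta enzyme known for its activity toward halogenated alkanes, had 49.6, 48.9 and 91.2 CPM with vehicle and 79.2, 75.7 and 80.8 CPM with glutamine. Vehicle replicate 5 was the highest of all 6 libraries, and the other vehicle libraries were the lowest. The log2 fold change of 0.31 ± 0.26 had an interval from -0.26 to 0.89 (edgeR, adjusted p = 0.645) and became 0.67 without vehicle replicate 5. It was 0.16 without vehicle replicate 3, without vehicle replicate 4 and as CPM of the total count.

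Among the microsomal enzymes Mgst1 (chr6:138140316-138156755, plus strand), a protein of the endoplasmic reticulum and the outer mitochondrial membrane with peroxidase activity toward lipid hydroperoxides, had the lowest fold change of the tested members. It stood at 259, 204 and 128 CPM with vehicle and at 120, 88.2 and 88.0 CPM with glutamine. The groups did not overlap, but vehicle replicate 5 lay close to glutamine replicate 1. The log2 fold change was -0.99 ± 0.26 with an interval from -1.57 to -0.41, which is 1.99-fold lower, and edgeR gave an adjusted p = 0.207 where DESeq2 gave 0.0341. Across 15 other settings of the fit the adjusted p-value ranged from 0.00212 to 0.504.

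Mgst3 (chr1:167371966-167393841, minus strand), a further microsomal enzyme with peroxidase activity, was the steadiest member, with 54.2, 50.0 and 55.6 CPM with vehicle and 63.8, 50.2 and 53.9 CPM with glutamine. Its log2 fold change was 0.07 ± 0.20 with an interval from -0.38 to 0.52 (adjusted p = 0.91), and its sign turned to -0.09 when CPM of the total count were used. Counts of Mgst1 were 4.77, 4.08 and 2.30 times those of Mgst3 in the vehicle libraries and 1.89, 1.76 and 1.63 times in the glutamine libraries, a ratio that does not depend on how libraries are scaled.

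Mgst2 (chr3:51660360-51682677, plus strand), known for a part in the synthesis of cysteinyl leukotrienes, had 0, 9 and 0 counts in the TECs of vehicle-treated mice and 0, 1 and 3 in those of glutamine-treated mice. It was too low to be tested. A count of 0 allows up to 3 counts by counting error alone, which is 0.296 to 0.360 CPM in the 3 libraries without a count.

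**Figure D2:**
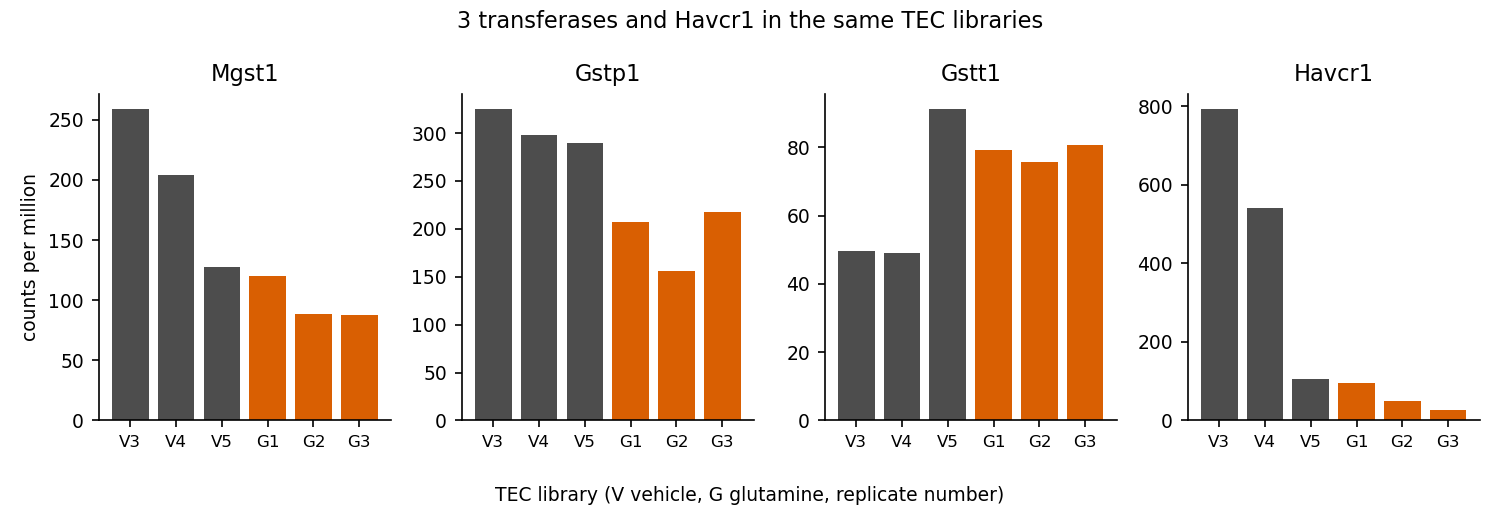
Level of Mgst1, Gstp1, Gstt1 and the injury marker Havcr1 in each TEC library, in CPM on axes that start at 0; gray bars are vehicle and orange bars glutamine libraries. Vehicle replicate 5 lies next to the glutamine libraries for Mgst1, Gstt1 and Havcr1 but with the other vehicle libraries for Gstp1.

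Vehicle replicate 5 differed from the other vehicle libraries in its markers of tubular injury. Havcr1, which encodes the injury marker KIM-1, had 793 and 541 CPM in vehicle replicates 3 and 4, 106 CPM in vehicle replicate 5, and 94.1, 49.4 and 26.2 CPM in the glutamine libraries. The 7 markers of injured proximal tubule summed to 12413, 10092 and 4206 CPM with vehicle and to 7311, 5807 and 4672 CPM with glutamine, so the groups overlapped. Of the 7, 5 were lower with glutamine and 2 higher, and 1, on the lower side, had an unadjusted p-value below 0.05. With TMM scaling Mgst1 had the same order of libraries as Havcr1, whereas Gstp1 did not set vehicle replicate 5 apart. For Mgst1, glutamine replicates 2 and 3 were nearly equal (88.2 and 88.0 CPM). They changed places as CPM of the total count (81.3 and 82.6). Without that library the log2 fold changes were -1.23 for Mgst1 and -0.69 for Gstp1. The part of tubular injury in these differences was not tested.

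Summed over the family, the transferases made up 1495, 1642 and 1882 CPM in the vehicle TEC libraries and 1302, 943 and 1416 CPM in the glutamine libraries. The lowest sum was that of glutamine replicate 2, the TEC library with the highest erythroid markers. The means were 1673 ± 195 and 1220 ± 247 CPM (SD, n = 3), a ratio of 0.729, and the groups did not overlap. By class the ratio of the group means was 0.751 for alpha, 0.752 for mu, 0.636 for pi, 0.619 for microsomal and 1.24 for theta, and with TMM scaling the groups were apart only for pi. As CPM of the total count they were apart also for mu and microsomal, but that scale moves the median of all tested genes to -0.16 on the log2 scale.

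The class shares of the groups overlapped except in the smallest class. Mu enzymes took 37.0 ± 4.07% of the transferase counts with vehicle and 38.6 ± 0.898% with glutamine, and alpha enzymes 25.5 ± 4.50% and 25.9 ± 4.81% (SD, n = 3). Pi took 18.4 ± 3.18% and 15.9 ± 0.556%, and microsomal 15.4 ± 5.57% and 13 ± 2.54%. Theta, which is Gstt1 alone, took 3.32%, 2.98% and 4.85% with vehicle and 6.08%, 8.03% and 5.71% with glutamine, so its share was higher in every glutamine library. A share also depends on the counts of the other classes, and the Gstt1 levels in CPM overlapped between the groups. These shares describe 6 libraries and carry no test.

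**Figure D3:**
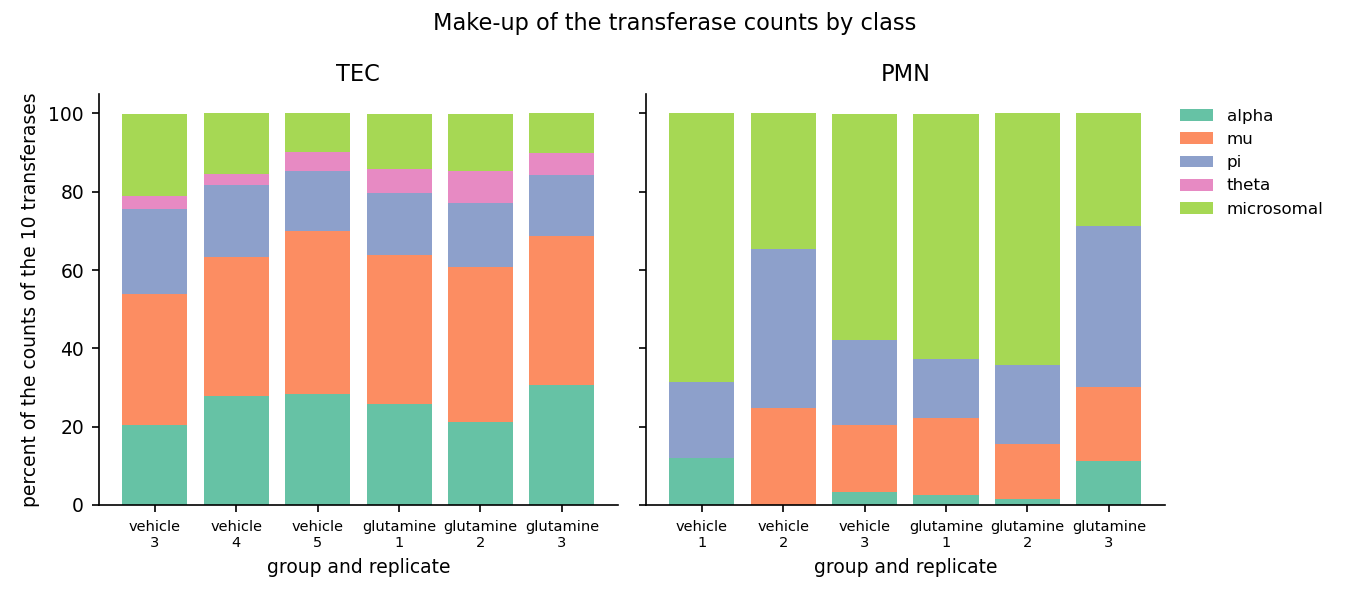
Share of each transferase class in the counts of all 10 transferases, in percent, for each TEC library (left) and each PMN library (right). TECs hold all 5 classes in each library, with theta from 2.98% to 8.03% and microsomal from 9.77% to 20.9%, whereas PMN counts are mostly microsomal and pi and vary from library to library.

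Per kb of the longest transcript, the order of levels in the vehicle TECs ran Gsta2 (422 CPM per kb), Gstp1 (371), Gstm5 (271), Gstm1 (265), Mgst1 (169), Gsta4 (65.0), Gstt1 (57.2), Mgst3 (48.5), Gstm2 (24.6) and Mgst2 (0.446). Neighbors whose vehicle libraries overlapped were Gsta2 with Gstp1, Gstm5 with Gstm1, Gstm1 with Mgst1, Gsta4 with Gstt1, and Gstt1 with Mgst3. With glutamine the first 5 places were the same, but Mgst1 now lay apart from Gstm1, at 75.4 to 103 against 133 to 216 CPM per kb. Gsta4 went below Gstt1 and Mgst3 in the glutamine libraries, and its range of 23.1 to 48.6 CPM per kb overlapped only that of Mgst3 among these.

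The second question was whether the genes on either side of the conjugation step differed in the same way. Of 7 genes of glutathione supply, all 7 were lower with glutamine, with a median log2 fold change of -0.41, and 2 had an unadjusted p-value below 0.05. Of all tested genes 49.4% were lower, and 5.58% were lower with such a p-value. Gsr, the reductase that returns oxidized glutathione to its reduced form, had 469, 693 and 493 CPM with vehicle and 330, 208 and 242 CPM with glutamine, a log2 fold change of -1.08 ± 0.23 (edgeR, adjusted p = 0.163). Gclm, the modifier subunit of the rate-limiting ligase, had 250, 265 and 295 CPM against 177, 138 and 173 CPM, a log2 fold change of -0.73 ± 0.19 (adjusted p = 0.205). In both genes every glutamine library lay below every vehicle library. Not every gene of the list makes or regenerates glutathione, since Slc7a11 imports cystine, and Ggct and Oplah act in the breakdown of gamma-glutamyl compounds. The catalytic subunit Gclc, the gene of the list with the most counts, overlapped between groups at 942 to 1327 CPM and 611 to 954 CPM.

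Genes that act on the conjugate once it is formed stood on the opposite side. Of 7 such genes 6 were tested, and all 6 were higher with glutamine, with a median log2 fold change of 0.51 and 3 unadjusted p-values below 0.05. Of all 14734 tested genes 7454 were higher, and 7.32% were higher with such a p-value. Ggt1, the brush border enzyme that removes the glutamate residue, had 302, 268 and 291 CPM with vehicle and 462, 385 and 438 CPM with glutamine, a log2 fold change of 0.58 ± 0.17 (edgeR, adjusted p = 0.233). Acy3, an aminoacylase that deacetylates mercapturates, had 57.8, 57.1 and 130 CPM against 156, 158 and 205 CPM, a log2 fold change of 1.08 ± 0.31 (adjusted p = 0.229). Dpep1, the dipeptidase of the brush border, had 82.6 to 126 CPM with vehicle and 121 to 199 CPM with glutamine, and the groups overlapped. Not every gene of the list acts toward a mercapturate, since Acy1 and Acy3 are deacylases and Kyat1 is a cysteine conjugate beta-lyase. Of 15 proximal tubule markers 12 were also higher with glutamine, 4 of them with an unadjusted p-value below 0.05. Markers of other segments were higher too, 6 of 6 for the distal convoluted and connecting tubule (3 with such a p-value), 6 of 7 for the thick ascending limb (2) and 6 of 7 tested for the collecting duct (0). The part of these cell types in the levels of the list was not tested.

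Export pumps were divided, with 3 of 6 lower and 3 higher. Abcc4, a pump of organic anions and conjugates, had 37.4, 63.2 and 37.7 CPM with vehicle and 22.7, 17.9 and 27.9 CPM with glutamine, a log2 fold change of -1.01 ± 0.28 (edgeR, adjusted p = 0.221). Abcc1 was low, at 6.27 to 8.68 CPM with vehicle and 10.3 to 11.5 CPM with glutamine. The apical pumps Abcc2 and Abcg2 overlapped between groups, with log2 fold changes of 0.25 ± 0.24 and -0.18 ± 0.18.

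Of 19 other transferase and related genes 13 were tested, 3 of them lower and 10 higher, with a median log2 fold change of 0.27 and no unadjusted p-value below 0.05. Those with the highest mean CPM over the 6 libraries were Gstt2, at 129 to 181 CPM with vehicle and 112 to 147 CPM with glutamine, and Gstz1, at 75.6 to 125 and 97.0 to 137 CPM. Gstk1, the mitochondrial and peroxisomal kappa enzyme, had a log2 fold change of 0.57 ± 0.27, and Ltc4s, the leukotriene synthase, stayed at or below 3.36 CPM in every library. The lower genes were Gsta1, Gsta3 and Gstt2. None of the 32 tested genes of these 4 lists passed an adjusted p-value of 0.05 in edgeR, and DESeq2 called Gsr (adjusted p = 0.00418), Gclm (0.034) and Acy3 (0.0429).

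**Figure D4:**
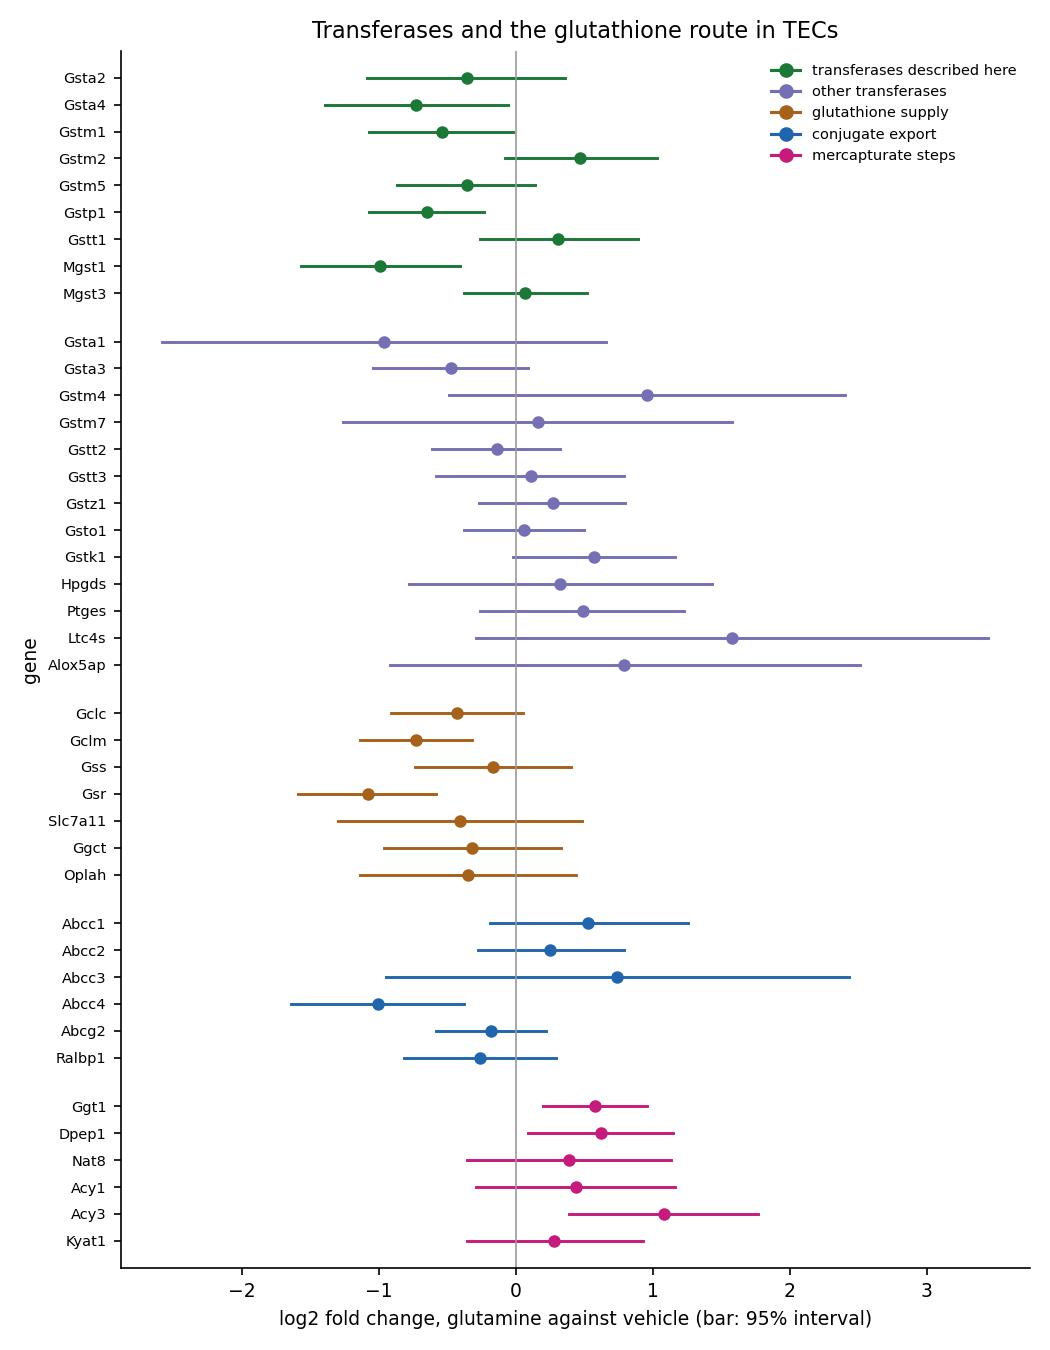
Log2 fold change of glutamine against vehicle in TECs for the tested transferases and for the genes of glutathione supply, conjugate export and later steps on the conjugate (labelled mercapturate steps); points are edgeR estimates from 3 libraries against 3 and bars 95% intervals. All 7 supply genes lie below 0 and all 6 genes of the later steps above 0, while transferases lie on both sides.

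For the member with the highest CPM in the alpha, mu, pi and microsomal classes, the genes whose levels followed it most closely over the 6 TEC libraries were found by the root mean square difference of mean-centered log2 CPM among 7568 genes. Gstm1 was followed most closely by Gsta3, a further alpha transferase, at 0.0668 log2 units, against a spread of 0.399 for Gstm1 itself, and then by Ssr3 and Nelfa. Gstp1 was followed by Armc10 (0.0579), Wwp1 and Tnk2, and Mgst1 by Dars (0.0746), Ssbp1 and Sqle. Gsta2 was followed by Pex11a (0.0991), Plekho1 and Mob1a. With 6 libraries and this many genes some close matches are found for any gene, and these are descriptions only.

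Promoter windows of 300 bases, from 250 before to 50 after a gene's start, were given by RefSeq on GRCm38.p6 for 9 of the 10 members. They were searched on both strands for the core of the antioxidant response element, TGACNNNGC. It occurred in 2 of the 11 windows of the members, in Gstm5 and Mgst1, and in 12.4% of all 32851 windows. A further window of Mgst1, at another start, held no match. Both matches are shown with their flanks because they are the only matches among the members, with the motif in capitals, read on the strand of the gene, and in Mgst1 the motif runs on the opposite strand. The Gstm5 match starts 42 bases before the start that RefSeq gives (chr3:107895802-107895831, plus strand) and the Mgst1 match 56 bases before it (chr6:138140461-138140490, plus strand). These starts are not the gene starts printed above, which come from the GENCODE annotation.
Gstm5: caccgcccacTGACCACGCggagggcgggt
Mgst1: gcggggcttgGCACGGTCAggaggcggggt
In TECs Gstm5 and Mgst1 had log2 fold changes of -0.36 and -0.99. Among tested members with a window but no match, Gsta2 (-0.36), Gstm1 (-0.54) and Gstp1 (-0.65) were lower. Gstm2 (0.47), Gstt1 (0.31) and Mgst3 (0.07) were higher. Gsta4 had no window. Bases outside the windows were not searched, and the part of the motif in these values was not tested.

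The third comparison asked the same of PMN. None of the 7 tested members passed an adjusted p-value of 0.05 in edgeR, as did 0% of the 10130 genes tested, and 1 of the 7, Gsta2, had an unadjusted p-value below 0.05, where 3.33% of all genes did. DESeq2 called the same member at an adjusted p-value below 0.05, where it called 2.34% of the genes, and limma-voom called none of all genes. Of the 7 members 4 were lower and 3 higher, and 50% of all tested genes were lower. These libraries varied far more from one to another than the TEC libraries, with standard errors of the members' log2 fold changes from 0.48 to 3.13 against 0.19 to 0.33 in TECs.

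**Figure D5:**
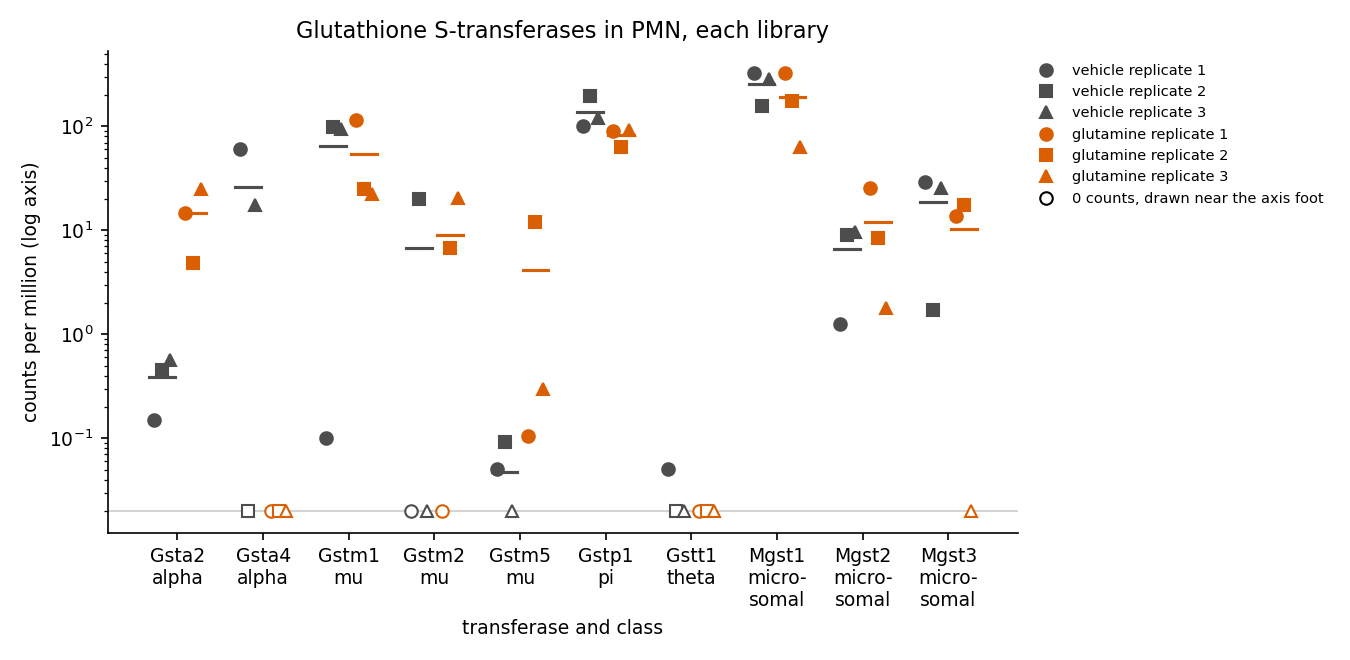
Level of each transferase in each PMN library, in CPM on a log axis; gray symbols are vehicle and orange symbols glutamine libraries, bars are group means, and open symbols on the gray line are libraries with 0 counts. Mgst1 and Gstp1 are present in every library, and Gsta2 is higher in all 3 glutamine libraries than in any vehicle library.

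Mgst1 had the highest mean level per kb of the transferases in PMN, with vehicle and with glutamine. It stood at 324, 156 and 286 CPM with vehicle and at 329, 177 and 63.4 CPM with glutamine, and the groups overlapped. The log2 fold change was -0.43 ± 0.62 with an interval from -1.92 to 1.06, and it was -0.02 without glutamine replicate 3 and -1.11 without glutamine replicate 1. Glutamine replicate 3 was the lowest library and also had the lowest sum of neutrophil markers, 22035 CPM, whereas glutamine replicate 1, the highest for Mgst1, had the highest, 71261 CPM. The part of the neutrophil share in the Mgst1 level was not tested.

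Gstp1 stood at 100, 196 and 120 CPM with vehicle and at 89.5, 63.2 and 92.7 CPM with glutamine. All glutamine libraries were below all vehicle libraries, as was the case for 4.63% of the genes tested in PMN, but the gap was narrow, and vehicle replicate 2, the library with endothelial markers, was the highest. The log2 fold change of -0.76 ± 0.48 had an interval from -1.90 to 0.37 and was -0.44 without vehicle replicate 2. Beside it, the TEC value of Gstp1 was -0.65 ± 0.19.

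Gsta2 was at the edge of detection with vehicle, with 3, 10 and 12 counts (0.150, 0.456 and 0.571 CPM). With glutamine it had 278, 104 and 498 counts (14.6, 4.90 and 25.0 CPM). Every glutamine library was above every vehicle library, as for 5.87% of the genes tested in PMN. The log2 fold change was 5.22 ± 1.64 with an interval from 1.33 to 9.11 (edgeR, adjusted p = 1; DESeq2, adjusted p = 0.000435). Gsta2 passed the filter on low counts mainly through the glutamine libraries, where it is high. Passing in this way favors a difference between the groups, so these values are a description. It was not tested where 10 counts were required in every library, and its unadjusted p-value in edgeR was above 0.05 without any one of the vehicle libraries. Both columns that the authors give for each library held 2 to 12 counts with vehicle and 103 to 502 with glutamine. They are 2 columns of the same library, so their likeness lends no further support. The copy Gsta1 had 0 counts in all 6 PMN libraries. Summing genes that share at least 10% of windows also gave a log2 fold change of 5.22 for Gsta2. In TECs, where Gsta2 was abundant, its log2 fold change was -0.36.

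The other members were present in some PMN libraries and nearly absent in others. Gsta4 had 1224, 0 and 368 counts with vehicle and 0 counts in all glutamine libraries, where a count of 0 allows at most 0.141 to 0.158 CPM, and since one vehicle library was also at 0 the groups overlapped. Gsta4 did not pass the filter with all libraries and has no test there. Without the filter, and without vehicle replicate 2, the vehicle library at 0, its unadjusted p-value in edgeR was below 0.05 on the lower side and its adjusted p-value was not. It enters such fits through the 2 vehicle libraries where it is high, so this is a description. Gstm1 had 0.1, 98.1 and 94.6 CPM with vehicle and 116, 25.1 and 22.5 CPM with glutamine, a log2 fold change of -0.24 ± 1.76. Gstm2 was at 0 in 2 vehicle libraries and 1 glutamine library and reached 20.1 and 20.4 CPM in the highest library of each group.

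Gstm5 stayed below 0.302 CPM except in glutamine replicate 2, which had 12.1 CPM, and Gstt1 had a single count in all 6 libraries. Mgst2 was detected in every PMN library, at 1.25, 9.03 and 9.61 CPM with vehicle and 25.6, 8.53 and 1.81 CPM with glutamine. Mgst3 had 29.4, 1.73 and 25.3 CPM with vehicle and 13.8, 17.4 and 0 CPM with glutamine. For Mgst2 and Mgst3 the groups overlapped, with log2 fold changes of 0.85 ± 1.64 and -0.85 ± 2.32.

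By class, microsomal enzymes held 53.7 ± 17.4% and pi 27.3 ± 11.7% of the transferase counts in PMN with vehicle, and 52.0 ± 20.1% and 25.4 ± 13.7% with glutamine (SD, n = 3). The 10 members summed to 482 to 554 CPM with vehicle and 226 to 589 CPM with glutamine, and the groups overlapped. The order of mean levels per kb in the vehicle PMN began with Mgst1 (219 CPM per kb), Gstp1 (169) and Gstm1 (49.9) and ended with Gsta2, Gstm5 and Gstt1. Mgst1 and Gstp1 overlapped, and Gstp1 was apart from Gstm1, while every pair of neighbors from Gstm1 down to Gsta2 overlapped.

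Of the companion genes 21 of 39 were tested in PMN, 14 of them lower and 7 higher with glutamine, and none passed an adjusted p-value of 0.05 in edgeR. Alox5ap, the lipoxygenase partner protein of the microsomal family, was abundant in all 6 libraries, at 1334 to 1742 CPM with vehicle and 1428 to 2904 CPM with glutamine. Gsr, at 554 to 882 CPM and 347 to 950 CPM, overlapped between groups. Gclc had 86.5, 8.25 and 5.33 CPM with vehicle and at most 0.189 CPM with glutamine, and Gstt2 had 11.3, 2.05 and 2.24 CPM against at most 0.502 CPM. DESeq2 called Gclc (adjusted p = 0.000402) and Gstt2 (0.0324). Vehicle replicate 1, the library that stood apart in thick ascending limb markers, was the highest for both. Both genes passed the filter mainly through the vehicle libraries, where they are high. Passing in this way favors a difference between the groups, so the calls lend no support.

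Set side by side, the transferase make-up of the cell types was unlike, although the tables were processed apart and no test between them was made. In the vehicle libraries Gsta2, Gstm5, Gstt1 and Gsta4 averaged 367, 256, 63.2 and 63.6 CPM in TECs and 0.392, 0.0471, 0.0167 and 26.3 CPM in PMN. The PMN mean of Gsta4 came from 61.3, 0 and 17.5 CPM. The highest of these was vehicle replicate 1, the library that stood apart in thick ascending limb markers. Mgst2, the member that was nearly absent from TECs at 0.269 CPM, averaged 6.63 CPM in PMN. Mgst1 was present in both, at 197 ± 65.5 CPM in TECs and 255 ± 88.3 CPM in PMN (SD, n = 3).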

How the data were processed

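For TECs and for PMN the authors deposited estimated counts, summed by gene symbol, and the processing notes in the labels name Trim Galore 0.6.4, Salmon 1.0.0, mm10 and DESeq2; the annotation is not given in the sources used here. The deposited PMN values, of the unit other, had been resaved by a spreadsheet program, with extra points in 3.20% of the cells and dates in 0.39%. They were decoded to estimated counts, which was not foreseen in the design, and both columns of a library (r from 0.985 to 0.987) were averaged. Counts were rounded to whole numbers. Each cell type was fitted alone with edgeR 4.0.16 in R 4.3.3 (TMM, default expression filter, robust quasi-likelihood test), with Benjamini-Hochberg adjustment over all genes tested. Standard errors (SE) were taken from the fold change and the F statistic. CPM for all genes used the TMM-scaled library sizes. DESeq2 1.42.0, limma 3.58.1 (voom), other normalizations and filters, sums over near-identical copies, and fits without each library were alternatives. In the sums over copies, Gstm1 took in the member Gstm2 and a further mu gene, although only 0.763% of its windows also occur in Gstm2. All sample columns were used. Positions and transcript lengths came from GENCODE M21 on GRCm38 and promoter windows from RefSeq on GRCm38.p6.

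All 10 members are described. Companion genes named are the 2 with the smallest p-value and the 2 with the highest CPM in TECs in each list. Gsta1, Gsta3, Gstp2, Gstp3, Alox5ap, Slc7a11, Ggct, Oplah, Acy1 and Kyat1 fall outside that rule and were named after their values were seen. The genes closest to Gstt1 over the TEC libraries are not reported here. The members and lists were chosen with earlier results of these data known. With 3 libraries per group, depth and number of libraries limit what can be detected, and PMN differences of even several log2 units have wide intervals.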

Additional observations from a re-analysis of the deposited data

How the results depend on the processing

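No paired analysis was possible because only 1 replicate number, 3, occurs in both TEC groups and the PMN numbers only name libraries. In TECs, the members past an adjusted p-value of 0.05 numbered 0 in edgeR and 1, Mgst1, both in DESeq2 and without a filter on low counts. The companion genes past it numbered 0, and 3 in DESeq2 and 4 without the filter. Over all genes edgeR called 0, DESeq2 308 and edgeR without the filter 398 in TECs, and leaving out single libraries gave 0 to 38. In PMN the members called numbered 0 in edgeR and 1, Gsta2, in DESeq2, the companion genes 0 and 2, and all genes 0 and 237. Unadjusted p-values below 0.05 were kept by Gstp1 and Mgst1 in each of the TEC settings run, and by Gsta4 in all but those without vehicle replicate 5 and without glutamine replicate 3. Gstm1 lost it in 6 of the 15, among them the sum over copies, which added Gstm2, a member with a fold change on the other side of 0. It was gained by Gstt1, higher, without vehicle replicate 5, and by Gsta2, lower, and Gstm2, higher, without glutamine replicate 3. Gsta2 in PMN lost it without each of the vehicle replicates 1, 2 and 3 in turn and without the filter. It was not tested where 10 counts were required in every library. Gsta4 in PMN, not tested with all libraries and the filter, had it on the lower side without the filter and without vehicle replicate 2. In TECs Mgst3 was -0.03 without glutamine replicate 1 (range without single libraries -0.03 to 0.14) and -0.09 as CPM of the total count. For single genes that scale was chosen after seeing the data, as were the sums over genes sharing windows. For the class sums it was planned. In PMN, without single libraries, Gstm1 ranged from -1.47 to 0.19, Gstm2 from -0.95 to 10.52 and Mgst2 from -0.38 to 1.35, and limma-voom gave 1.79 for Gstm1. Without single libraries Gstm1 in TECs ranged from -0.70 to -0.36 and Mgst3 in PMN from -1.47 to -0.27. In 307 other pairs of a result and an alternative the count or the direction was kept, and the side of the threshold where there was a p-value. Class sums and CPM of the total count had none, and on that scale the TEC groups no longer overlapped for mu and microsomal. The causes of these changes were not tested.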

Other observations

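2 further genes that NRF2 is known to regulate, chosen after their values were seen, stood on opposite sides in TECs. Hmox1, which encodes the heme-degrading enzyme heme oxygenase, had 53.5, 91.1 and 136 CPM with vehicle and 198, 258 and 400 CPM with glutamine, a log2 fold change of 1.61 ± 0.34 (edgeR, adjusted p = 0.163; DESeq2, adjusted p = 0.00102). Nqo1, a quinone reductase, had 81.6, 125 and 78.1 CPM with vehicle and 86.5, 37.6 and 42.8 CPM with glutamine, a log2 fold change of -0.77 ± 0.32 (adjusted p = 0.359). Every Hmox1 value with glutamine was above every vehicle value, as for 1328 of the 14734 genes tested in TECs. The Nqo1 groups overlapped.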
